A study of Homo sapiens with 9 samples.

Results

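The genes described here are 36 members of the integrated stress response and the unfolded protein response, among 34961 genes in the table. They were listed by symbol for their known place in these responses, at a time when earlier results of the same data were known, and each symbol matched 1 gene. RNA was sequenced from WA09 (H9), a human embryonic stem cell line, as it was differentiated towards serotonin neurons. All 9 libraries carry the genotype label TPH2-EGFP knockin, a green fluorescent reporter placed at TPH2, the gene for the neuronal enzyme of serotonin synthesis, and all 9 carry the same treatment label for induced differentiation, Day0 included. The 3 Day0 libraries came from embryonic stem cells, the 3 Day21 libraries from cells labelled neural progenitor cells, and the 3 Day42 libraries from cells labelled TPH2+ serotonin neurons. The labels number biological replicates but do not say whether they were separate differentiations, so the p-values here reflect library-to-library spread that may be technical. The labels used here do not say how the TPH2+ cells of Day42 were obtained, and 1 knock-in line was used throughout.

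Both responses adjust the cell to faults in protein synthesis. In the integrated stress response, stress-sensing kinases phosphorylate the initiation factor eIF2, which slows most translation while favouring that of the transcription factor ATF4. ATF4 and its partners raise genes for amino acid supply and redox balance and, when stress lasts, DDIT3 (CHOP), a factor linked to cell death. The unfolded protein response starts at sensors in the membrane of the endoplasmic reticulum (ER), of which the kinase PERK feeds into eIF2, while ATF6 and the ERN1 (IRE1) to XBP1 branch raise ER chaperones and the machinery that degrades misfolded proteins. Secretory cells and neurons rely on both, and the chaperone BiP, encoded by HSPA5, is the classic readout of the ER branch.

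Promoter sequences are shown first, for the marker of each arm and for the members that rose on Day42 and hold a motif match. RefSeq starts on GRCh38.p14 were matched for 33 of the 36 members, and the 250 bases before each start were searched on both strands for 3 short motifs. These 33 members have 47 windows. A member is named if any of its windows matched, while the shares of all genes count single windows, so the 2 are not like for like. TGATGNAA, a short form of the site bound by ATF4 with a C/EBP partner, occurred in ASNS, ATF3, CHAC1 and HERPUD1, and in 3.14% of 35116 promoter windows of all genes. TGACGTCA, the cyclic AMP response element, occurred in PPP1R15A alone among the members and in 1.65% of windows. TGACGTGG, which contains the core of an XBP1 site, was in none of the members' windows and in 0.612% of all. The last pair of motifs share their opening letters, but no stretch can match more than one of the 3 in full. The stretches run 5′ to 3′ on the gene's strand, up to 200 bases before the start and ended where an annotated exon begins, with the fixed letters of a match in capitals. HSPA5 and DDIT3 hold none of the 3 motifs in the 250 bases searched. Other sites, among them further ones bound by ATF6 or XBP1, and bases further from the start were not searched. The absence of these 3 therefore does not show that either promoter lacks a site of its own arm. A match is a description of the letters and not evidence of binding.
HSPA5 (chr9:125241344-125241543, minus strand): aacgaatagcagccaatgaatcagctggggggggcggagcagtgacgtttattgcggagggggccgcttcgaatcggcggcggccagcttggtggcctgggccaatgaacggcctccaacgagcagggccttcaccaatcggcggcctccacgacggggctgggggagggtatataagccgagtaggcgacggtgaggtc
DDIT3 (chr12:57520518-57520717, minus strand): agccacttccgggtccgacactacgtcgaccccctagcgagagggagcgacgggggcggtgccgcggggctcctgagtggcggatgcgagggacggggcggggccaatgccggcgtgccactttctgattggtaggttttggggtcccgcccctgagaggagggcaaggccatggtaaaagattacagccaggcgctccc
ATF3 (chr1:212565207-212565333, plus strand): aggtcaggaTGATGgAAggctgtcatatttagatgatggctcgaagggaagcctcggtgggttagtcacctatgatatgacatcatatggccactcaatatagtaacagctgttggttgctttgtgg
PPP1R15A (chr19:48872221-48872391, plus strand): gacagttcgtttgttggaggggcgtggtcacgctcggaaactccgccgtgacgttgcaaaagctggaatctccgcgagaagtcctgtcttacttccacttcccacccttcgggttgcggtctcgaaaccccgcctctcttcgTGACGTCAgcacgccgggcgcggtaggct
HERPUD1 (chr16:56931942-56932047, plus strand): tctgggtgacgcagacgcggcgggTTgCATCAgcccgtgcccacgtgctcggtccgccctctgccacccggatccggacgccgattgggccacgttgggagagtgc

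Total counts per library ran from 58526466 to 69658328. Levels are CPM, a gene's count as parts of a fixed library total, scaled by TMM, a factor per library that evens out composition. FPKM, which also divides by gene length, is used where genes are compared with each other or summed. These FPKM were taken as deposited, without TMM, so their changes between days differ from those in CPM. For HSPA5 the mean went from 345 FPKM on Day0 to 238 on Day42, and from 1954 to 829 CPM. Day42 libraries were sparser. Between 22198 and 24741 genes had a count on Day0 and Day21, against 16077, 17101 and 10797 in Day42 replicates 1, 2 and 3. Replicate 3 of Day42 stood apart, with 60.2% of tested genes and 9 of the 36 members at or under 12 counts, the floor used here, and results that rest on it are given with and without it. Across genes, which are not independent replicates, log2 CPM correlated at 0.811 between Day42 replicates 1 and 2 and at 0.668 and 0.666 with replicate 3, against 0.920 to 0.954 within the other days. The labelled cell types were checked by markers. The 6 pluripotency genes summed to 1014 to 1752 CPM on Day0 and 0.0830 to 5.62 on Day42, where 4 of 6 were at 0 in each library. The 6 serotonin genes summed to 3.90 to 8.13 CPM on Day0 and Day21 and to 1243 to 1479 on Day42. The 6 neural progenitor genes summed to 101 to 147 CPM on Day0, 954 to 1277 on Day21 and 278 to 450 on Day42. These sums do not stand for each gene: 2, 2 and 3 of the 6 were at 0 in Day42 replicates 1, 2 and 3, HES5 in each. On Day0, SOX1 and HES5 were at 0 in each library. The 6 mesenchymal genes summed to 28.8 to 34.2 CPM on Day0, 579 to 629 on Day21 and 123 to 157 on Day42. The 4 genes of dividing cells summed to 774 to 1255 CPM at Day0, 824 to 890 at Day21 and 0.178 to 19.3 at Day42. The 6 general neuron genes summed to 26.7 to 86.4 CPM at Day0, 523 to 858 at Day21 and 3679 to 4694 at Day42. Mitochondrial transcripts took 6.13% to 10.6% of counts in the 6 earlier libraries and 2.65% to 2.94% on Day42, and ribosomal protein genes 6.21% to 9.99% and 1.72% to 2.11%. All of these moved with every Day42 difference below, and their part in those differences was not tested.

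A gene was called when edgeR's quasi-likelihood test gave a Benjamini-Hochberg adjusted p under 0.05 over all 20156 tested genes and a change of at least 2-fold, and all 36 members were tested. From Day0 to Day21, 1 of 36 members was called higher and 0 lower, while 2.5% of all genes were called, 1.32% as higher and 1.18% as lower. In this comparison 6 members had an unadjusted p under 0.05, 4 higher and 2 lower. The 3 days share 1 estimate of spread. With only Day0 and Day21 in the fit, 5 members were called higher and 25.6% of all genes were called. Without Day42 replicate 3 these were 3 members and 13.3%. From Day21 to Day42, 6 members rose and 6 fell, 12 of 36, where 26.3% of all genes were called, 6.52% as higher and 19.7% as lower. On Day42 against Day0, again 6 were higher and 6 lower, and 32.2% of all genes were called, 8.82% as higher and 23.4% as lower. The total number of called members was thus near the background. The 3 libraries of each day did not overlap for 17 members from Day0 to Day21 (8 higher, 9 lower), where 46.9% of all genes were so separated (24.7% higher, 22.2% lower). For 21 members this held from Day21 to Day42 (10 higher, 11 lower; all genes 45.8%, with 11.1% higher and 34.7% lower), and for 16 between Day0 and Day42 (7 higher, 9 lower; all genes 45.5%, with 11.4% higher and 34.1% lower). A day's libraries lay apart from both other days in 8 members for Day0, 10 for Day21 and 15 for Day42, against 24.4%, 22.4% and 33.0% of all genes. The members' median change was 0.06 on the log2 scale from Day21 to Day42 and 0.14 from Day0 to Day42, while the median of all genes was -0.54 and -0.57. Scaling by library totals alone brought these medians of all genes to -0.0049 and 0.0091, so Day42 changes are relative to a scale that moves by about that much. With that scaling, which was added after the data were seen, the members split 7 higher to 5 lower and 8 to 5. With limma on log2(FPKM + 1) they split 10 to 5 and 11 to 5, among the 32 members and 10619 genes whose FPKM reached 1 in 3 libraries or more, while edgeR on those genes left the members at 6 to 6 in both. The share of lower calls among all called genes was 75.2% from Day21 and 72.6% from Day0 in edgeR, 63.0% and 60.3% with library totals, 54.2% and 53.1% with the FPKM filter alone, and 45.5% and 47.1% with limma, which holds that filter too. The comparisons share their libraries and are not independent of each other.

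**Figure D1:**
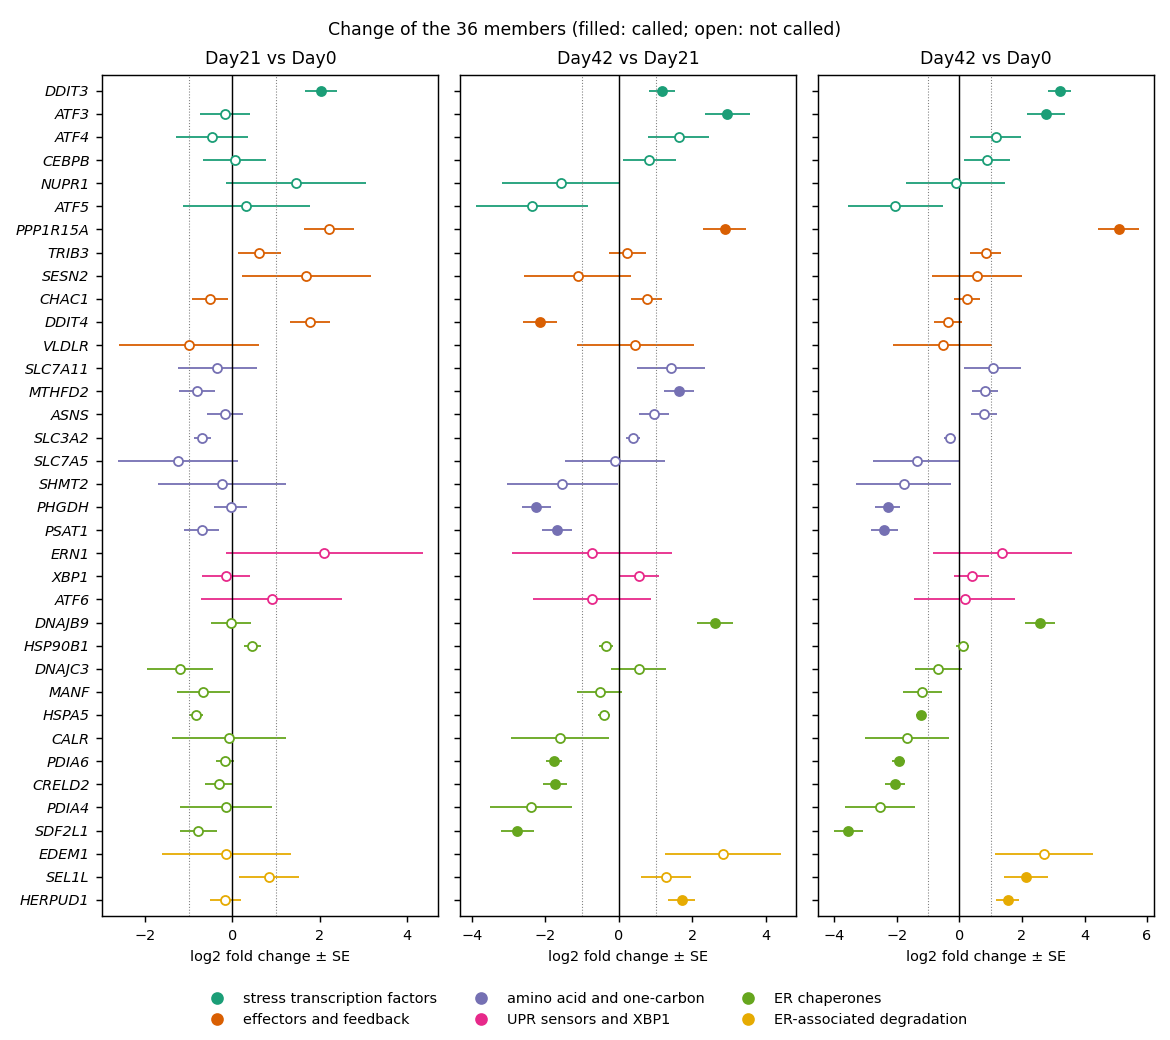
Log2 fold change ± SE from edgeR (x axis) of each of the 36 members (y axis, grouped by role) in the 3 comparisons; filled points were called, open points were not, and dotted lines mark a 2-fold change. On Day42 filled points lie on both sides of 0 within the chaperone and amino acid groups, while those of the transcription factors, and of HERPUD1 and SEL1L in ER-associated degradation, lie to the right.

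Among the 6 transcription factors of the stress response, DDIT3 and ATF3 rose and the other 4 were not called in any comparison with all libraries in edgeR. Summed over the group, FPKM was 22.8 to 54.6 at Day0, 61.8 to 79.0 at Day21 and 222 to 336 at Day42. Of the Day42 sums, DDIT3 alone gave 184, 138 and 239 in replicates 1, 2 and 3. DDIT3, the pro-death factor CHOP (ENSG00000175197, chromosome 12, 57516588 to 57521737, minus strand on GRCh38), stood at 24.2, 30.8 and 16.6 CPM in the 3 Day0 libraries, 72.5, 105 and 115 on Day21, then 215, 153 and 291 on Day42. Each day lay above the one before with no overlap, and DDIT3 was the one member called in all 3 comparisons. Its level rose 4.09-fold by Day21 (log2 change 2.03 ± 0.36 SE, edgeR adjusted p = 0.0253) and 9.21-fold by Day42 (3.20 ± 0.38, edgeR adjusted p = 0.000775). The step from Day21 to Day42 was 1.17 ± 0.35 (edgeR adjusted p = 0.0393). Because RNA came from bulk cultures, more cells of a type that makes a transcript and more transcript per cell cannot be told apart, here and below. Both smaller steps were near the threshold. The Day21 call was lost on leaving out any 1 Day0 or Day21 library (edgeR adjusted p 0.0687 to 0.143), and the Day42 step fell short without Day42 replicate 3 (0.93, edgeR adjusted p = 0.0562), without replicate 1 of any of the days (adjusted p 0.0613 to 0.121) and without Day21 replicate 2 or 3 (adjusted p = 0.107 and 0.0835).

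Reads at DDIT3 may be shared. The gene overlaps AC022506.1 on its own strand and MARS1, the methionyl-tRNA synthetase, and MBD6 on the other, and the sources used here do not give the strand setting of the counting. MARS1 had 41713, 27770 and 42464 counts in the Day42 libraries against 6828 to 12791 in the 6 earlier ones, and DDIT3 had 16768, 12974 and 24524 against 1015 to 6352. From Day0 to Day21, when DDIT3 rose, MARS1 stood at 190 ± 22.2 and 136 ± 11.3 CPM (SD, n = 3), while MBD6 stood at 0.924 ± 0.642 and 1.68 ± 0.475. The part of reads from overlapping genes in either step of DDIT3 was not tested.

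ATF3, an early stress-induced factor of the ATF/CREB family (ENSG00000162772, chromosome 1, 212565334 to 212620772), was low on both earlier days, at 7.43, 6.44 and 15.7 CPM and then 12.6, 8.42 and 5.10, and stood at 105, 54.7 and 41.9 on Day42. All 3 Day42 libraries lay above all 6 others. It rose by 2.95 ± 0.61 on the log2 scale from Day21 (edgeR adjusted p = 0.00897) and, relative to Day0, by 2.77 ± 0.61 (edgeR adjusted p = 0.00932). ATF4, the factor whose translation defines the response (ENSG00000128272, chromosome 22, 39519672 to 39522683), had 183, 17.7 and 31.7 CPM on Day0, 38.9, 93.7 and 35.3 on Day21, then 137, 157 and 224 on Day42. Day42 lay above Day21 without overlap, but 1 Day0 library was as high as Day42. The changes of 1.63 ± 0.83 from Day21 (edgeR adjusted p = 0.200) and 1.16 ± 0.82 from Day0 (edgeR adjusted p = 0.340) were not called. Without Day0 replicate 1 the latter was 2.80 (edgeR adjusted p = 0.0177), and limma on log2(FPKM + 1) called both, at 2.30 and 2.41 (limma adjusted p = 0.0232 and 0.0163). The ATF4 protein, which is set mainly by translation, was not measured. CEBPB, a dimer partner of these factors, had 2.06, 1.58 and 4.58 CPM on Day0, 3.70, 3.14 and 1.68 on Day21, then 4.89, 5.52 and 4.76 on Day42. Its Day42 libraries lay narrowly above the others, with a change of 0.83 ± 0.73 from Day21 that was not called (edgeR adjusted p = 0.484), although limma on log2(FPKM + 1) called it higher than on Day0. ATF5, another factor translated under stress, had 5.96, 2.36 and 2.87 CPM on Day0, 3.74, 4.86 and 5.37 on Day21, then 1.32, 1.38 and 0 on Day42, the lowest day, and was not called either (-2.37 ± 1.53 from Day21, edgeR adjusted p = 0.320). NUPR1, a small stress-induced chromatin protein, had 2.69 to 3.21 CPM on Day0, 6.37 to 10.3 on Day21 and 0 to 6.42 on Day42, with 0 in replicate 3. Its Day21 libraries all lay above Day0, but the change of 1.46 ± 1.61 was not called (edgeR adjusted p = 0.829). Without Day42 replicate 3 it was 1.45 ± 0.56 (edgeR adjusted p = 0.135). NUPR1 was called higher on Day21 with only those 2 days in the fit and with voom and quality weights.

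**Figure D2:**
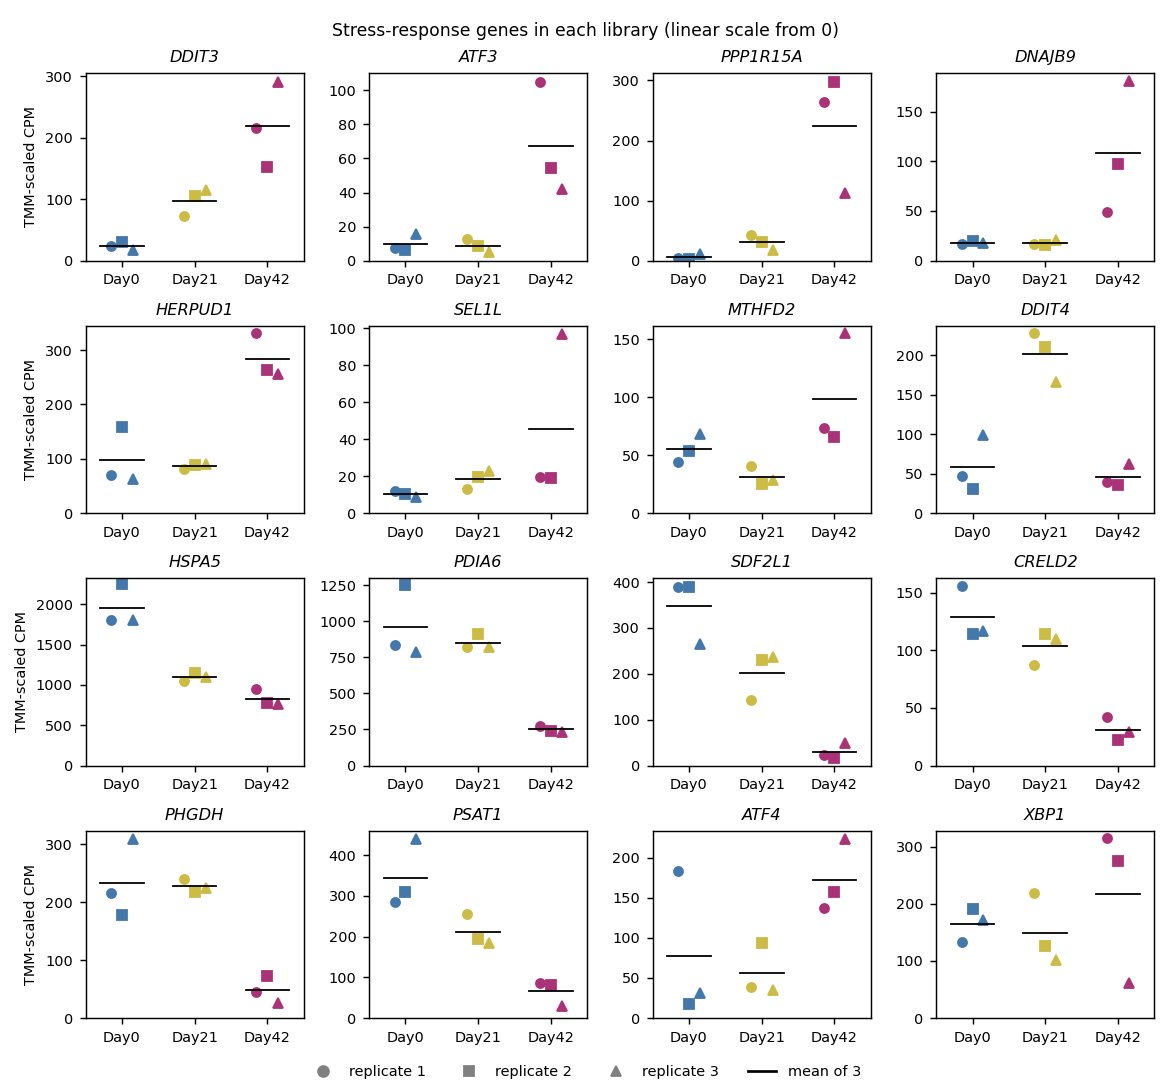
TMM-scaled CPM (y axis, linear from 0) of 16 members in each of the 9 libraries, by day (x axis), with the replicate as symbol and the mean of 3 as a line. DDIT3 climbs from 16.6 to 30.8 CPM on Day0 to 153 to 291 on Day42, while HSPA5 goes from 1804 to 2250 down to 760 to 952, and a single Day42 library carries the SEL1L mean.

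Among the 6 effectors and feedback genes, PPP1R15A rose on Day42 and DDIT4 fell, and the other 4 were not called. PPP1R15A (GADD34, ENSG00000087074, chromosome 19, 48872421 to 48876058), the phosphatase subunit that removes the phosphate from eIF2 and so ends the translation block, had 5.15, 3.50 and 11.1 CPM on Day0, 42.7, 30.5 and 18.3 on Day21, then 264, 297 and 113 on Day42. The 3 days did not overlap. The change from Day0 to Day42, 34.2-fold, was the largest of any member (log2 5.09 ± 0.65, edgeR adjusted p = 0.00113). On leaving out 1 library the log2 value ran from 4.78 to 5.69, the latter without Day0 replicate 3. From Day21 it was 2.88 ± 0.59 (edgeR adjusted p = 0.00808), and the first step, 2.21 ± 0.57, missed the threshold (edgeR adjusted p = 0.0663) but passed it without Day42 replicate 3 (2.20, edgeR adjusted p = 0.0234).

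DDIT4 (REDD1, ENSG00000168209, chromosome 10, 72273924 to 72276036), an inhibitor of the growth kinase mTORC1, was high only on the middle day. It had 47.5, 30.3 and 99.0 CPM on Day0, 228, 211 and 167 on Day21, then 39.3, 36.3 and 61.9 on Day42, with Day21 above both other days in every library. The fall to Day42 was called (-2.14 ± 0.46, edgeR adjusted p = 0.0104), and the difference before it was not (1.78 ± 0.46, edgeR adjusted p = 0.0645), although it was called without Day42 replicate 3 (1.76, edgeR adjusted p = 0.0292). TRIB3, a pseudokinase that restrains ATF4, ranged from 15.0 to 58.2 CPM. CHAC1, which degrades glutathione, stayed within 22.2 to 55.8 CPM. SESN2, a leucine sensor, and VLDLR, a lipoprotein receptor, were both at or under the floor in Day42 replicate 3, with 24.8 and 28.0 and with 7.40 and 7.51 CPM in the other Day42 libraries. CHAC1 and TRIB3, targets of the same factor as DDIT3, were not called on Day42, with changes of 0.76 ± 0.42 and 0.23 ± 0.49 from Day21 (edgeR adjusted p = 0.237 and 0.806). With limma on log2(FPKM + 1), however, CHAC1 was called higher than on Day21 and TRIB3 higher than on Day0, and without Day0 replicate 3 edgeR called TRIB3 against Day0 as well.

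The 8 genes of amino acid supply and one-carbon metabolism did not move as one. From Day0 to Day21 all 8 had negative changes, with a median of -0.52 against 0.03 for all genes, and 0 were called (1 at an unadjusted p under 0.05; DESeq2 called none of them either). By Day42, PHGDH and PSAT1, which carry out the first steps of serine synthesis, fell, and MTHFD2, the mitochondrial folate enzyme, rose from Day21. PHGDH (ENSG00000092621, chromosome 1, 119648411 to 119744218) had 215, 177 and 310 CPM on Day0, 240, 218 and 224 on Day21, then 45.1, 72.3 and 26.3 on Day42. PSAT1 (ENSG00000135069, chromosome 9, 78297125 to 78330093) had 285, 311 and 440, then 256, 193 and 185, then 86.7, 81.2 and 29.2 CPM. For both, every Day42 library lay below every earlier one. Relative to Day0, PHGDH and PSAT1 fell, with log2 changes of -2.29 ± 0.39 and -2.39 ± 0.42 (edgeR adjusted p = 0.00319 and 0.00362). Relative to Day21 the changes were -2.25 ± 0.39 and -1.69 ± 0.41 (edgeR adjusted p = 0.00427 and 0.0172), and that of PSAT1 was not called with library totals alone (-1.17, edgeR adjusted p = 0.106) or without Day21 replicate 1 (-1.49, edgeR adjusted p = 0.0586).

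MTHFD2 (ENSG00000065911, chromosome 2, 74198610 to 74215298) had 44.5, 53.2 and 67.8 CPM on Day0, 40.8, 25.1 and 28.6 on Day21, then 73.4, 65.6 and 155 on Day42. Day42 lay above Day21 in every library and overlapped Day0. It rose by 1.64 ± 0.42 from Day21 (edgeR adjusted p = 0.0215), a call lost without Day21 replicate 2 or 3 (edgeR adjusted p = 0.0968 and 0.0885), and by 1.15 without Day42 replicate 3 (edgeR adjusted p = 0.0200). SHMT2, the mitochondrial serine hydroxymethyltransferase of the same pathway, had 191, 214 and 205 CPM on Day0, 174, 188 and 156 on Day21, then 93.0, 84.8 and 0.0237 on Day42. It lay lower in every Day42 library, but replicate 3, near 0, widened its error (-1.78 ± 1.52 from Day0, edgeR adjusted p = 0.433). Without replicate 3 it was called against Day0 (-1.20 ± 0.20, edgeR adjusted p = 0.00236). Against Day21 the change without replicate 3 was under 2-fold and not called (-0.95 ± 0.19, edgeR adjusted p = 0.00781). Amino acid transporters were not called in edgeR, while limma on log2(FPKM + 1) called SLC3A2 higher on Day42 than on Day21. SLC3A2, the heavy chain of several of them, had 443, 381 and 568 CPM on Day0, 275, 309 and 279 on Day21, then 376, 409 and 339 on Day42. Its Day21 libraries lay below both other days, with a change of -0.69 ± 0.20 from Day0 (edgeR adjusted p = 0.0964). SLC7A11, its cystine-carrying partner, had 5.14 and 8.75 CPM in Day42 replicates 1 and 2 and 73.4 in replicate 3, against 10.0 to 14.3 before. SLC7A5, the leucine-carrying partner, ranged from 13.7 to 108 CPM outside Day42 replicate 3, where it was under the floor. ASNS, the asparagine synthetase and a textbook ATF4 target, ranged from 33.4 to 146 CPM, and its change of 0.95 ± 0.42 from Day21 was not called (edgeR adjusted p = 0.137). Library totals alone and limma on log2(FPKM + 1) each called ASNS higher on Day42 than on both earlier days.

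None of the 3 genes for the ER sensors and their effector was called with all libraries in edgeR. XBP1, the transcription factor made active by ERN1 splicing, had 132, 191 and 173 CPM on Day0, 218, 125 and 102 on Day21, then 316, 275 and 61.6 on Day42. The days overlapped, with Day42 holding both the highest libraries and the lowest (0.55 ± 0.56 from Day21, edgeR adjusted p = 0.556). Gene-level counts do not separate its spliced form. ATF6, the sensor that is cut in the Golgi to become a transcription factor, had 10.4, 14.6 and 13.6 CPM on Day0, 27.4, 20.7 and 23.8 on Day21, then 28.5, 14.9 and 0 on Day42. Day21 lay above Day0 in every library, and the change of 0.90 ± 1.62 was not called (edgeR adjusted p = 0.949). That SE comes from a spread shared by all 3 days. Without Day42 replicate 3 the change was 0.89 ± 0.33, also not called (edgeR adjusted p = 0.119). ERN1, the kinase and nuclease IRE1, was scarce, at 1.07 to 1.29 CPM on Day0 and 2.55 to 7.01 on Day21, and had no count in Day42 replicates 1 and 3 against 8.92 CPM in replicate 2. Its Day21 libraries all lay above Day0, and it was called higher there with only those 2 days in the fit and with voom and quality weights. Without Day42 replicate 2, which leaves only libraries with no count on that day, ERN1 was called lower in both Day42 comparisons.

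Of the 10 ER chaperones and folding factors, 4 were called lower on Day42 relative to Day0, namely HSPA5, PDIA6, SDF2L1 and CRELD2, and 1, DNAJB9, higher. Relative to Day21, 3 were lower and 1 higher. The group's median change was -1.46 from Day0 and -1.06 from Day21, against -0.57 and -0.54 over all genes, and 8 of 10 changes were negative in each. Summed FPKM of the group was 815 to 1032 at Day0, 660 to 731 at Day21 and 539 to 568 at Day42. HSPA5 (BiP, ENSG00000044574, chromosome 9, 125234853 to 125241343, minus strand), the Hsp70 of the ER, had 1807, 2250 and 1804 CPM on Day0, 1050, 1148 and 1103 on Day21, then 952, 775 and 760 on Day42. Each day lay below the one before. Its fall from Day0 to Day42 was 2.36-fold (log2 -1.24 ± 0.16, edgeR adjusted p = 0.00119). The difference between Day0 and Day21, -0.83 ± 0.16, passed the p threshold (edgeR adjusted p = 0.0355) but was under 2-fold, and that between Day21 and Day42, -0.41 ± 0.16, did not (edgeR adjusted p = 0.0943). The scale decides the sign of the last: it was 0.11 with library totals and 0.23 with limma on log2(FPKM + 1), and with those the Day0 to Day42 change, -0.61 and -0.53, was under 2-fold as well.

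SDF2L1 (ENSG00000128228, chromosome 22, 21642302 to 21644299), a partner of BiP, changed most among the chaperones. It had 389, 390 and 265 CPM on Day0, 142, 229 and 236 on Day21, then 24.0, 15.8 and 49.6 on Day42, with no overlap between days. It fell on the log2 scale, with changes of -2.77 ± 0.45 from Day21 and -3.55 ± 0.47 from Day0 (edgeR adjusted p = 0.00359 and 0.00129). PDIA6 (ENSG00000143870, chromosome 2, 10783391 to 10837977, minus strand), a protein disulfide isomerase, had 836, 1248 and 788 CPM on Day0, 820, 908 and 820 on Day21, then 274, 240 and 235 on Day42. The earlier days overlapped and Day42 lay below both. It fell, with changes of -1.77 ± 0.21 from Day21 and -1.94 ± 0.21 from Day0 (edgeR adjusted p = 0.00120 and 0.000548). CRELD2 (ENSG00000184164, chromosome 22, 49918167 to 49927537), an ER stress-induced folding factor, had 156, 114 and 117 CPM, then 87.6, 114 and 110, then 42.3, 21.9 and 29.1. Day0 and Day21 were separated narrowly and Day42 lay well below both, with changes of -1.74 ± 0.32 and -2.05 ± 0.32 against Day21 and Day0, respectively (edgeR adjusted p = 0.00525 and 0.00245). PDIA4, a further disulfide isomerase, had 206, 199 and 355 CPM on Day0, 276, 220 and 190 on Day21, then 63.3, 67.1 and 0.819 on Day42. All Day42 libraries were lower, and edgeR called it only without replicate 3 (-1.96 ± 0.33 from Day0, edgeR adjusted p = 0.00278; with it, -2.53 ± 1.12, edgeR adjusted p = 0.123). Voom with quality weights called PDIA4 lower on Day42 than on both earlier days. That fit holds all libraries but gave Day42 replicate 3 a weight of 0.0325, against 0.371 to 6.02 for the others, so it largely repeats leaving it out. MANF, a secreted ER factor with neurotrophic activity, was at 14.7 and 16.3 CPM in Day42 replicates 1 and 2 but at 56.1 in replicate 3, and without the latter was called lower than on Day0 (-2.09, edgeR adjusted p = 0.00804) and than on Day21 (-1.41, edgeR adjusted p = 0.0404).

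Within the same group DNAJB9 went the other way. DNAJB9 (ERdj4, ENSG00000128590, chromosome 7, 108569867 to 108574850), a J-domain co-chaperone that brings BiP to IRE1, had 17.2, 19.9 and 17.3 CPM on Day0, 16.9, 15.8 and 20.4 on Day21, then 48.9, 97.0 and 180 on Day42. The 6 earlier libraries were close together and all Day42 libraries lay above them. It rose 6.15-fold from Day21 (log2 2.62 ± 0.49, edgeR adjusted p = 0.00548) and, relative to Day0, by 2.58 ± 0.49 (edgeR adjusted p = 0.00470). HSP90B1 (GRP94), the Hsp90 of the ER, was not called and kept within 390 to 704 CPM in all 9 libraries. DNAJC3, an inhibitor of the eIF2 kinases, ranged from 12.1 to 180 CPM, and CALR, the lectin chaperone calreticulin, from 0.142 to 114, with both extremes of low level in Day42 replicate 3.

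**Figure D3:**
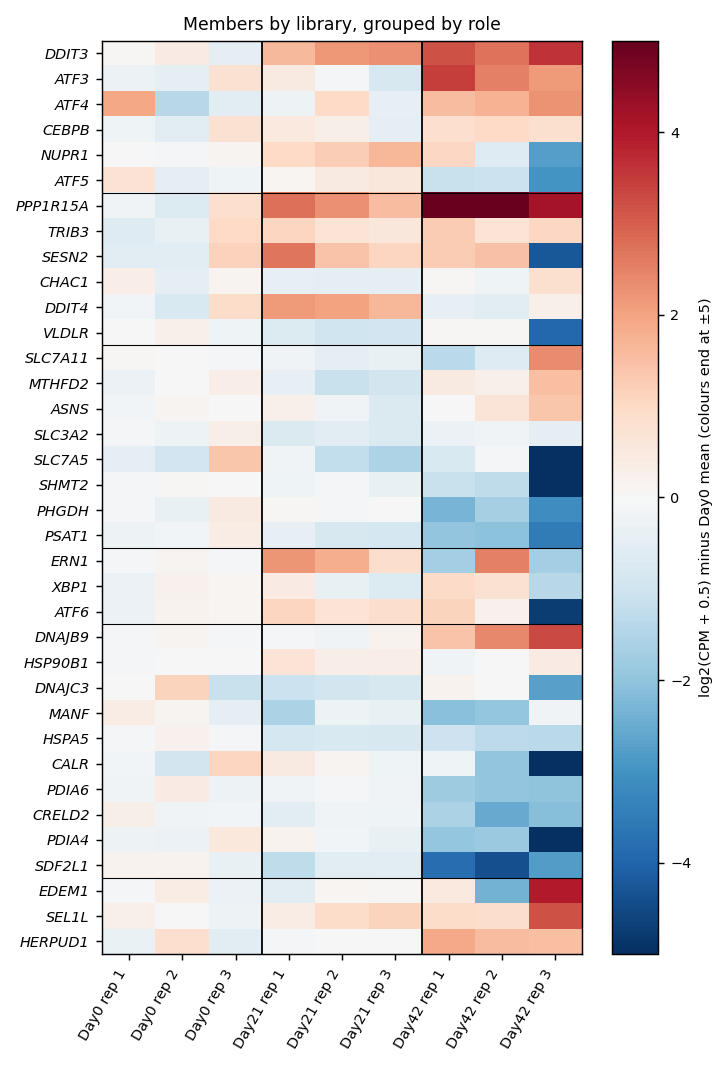
Log2(CPM + 0.5) of each of the 36 members (rows, grouped by role as in the plot of fold changes) in the 9 libraries (columns), minus the gene's Day0 mean; colours end at 5 in either direction. Columns of Day42 hold both the darkest red (PPP1R15A) and the darkest blue cells, and many of the blue ones, SHMT2 and PDIA4 among them, are in Day42 replicate 3.

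ER-associated degradation returns misfolded proteins to the cytosol for destruction. Of its 3 genes, HERPUD1 was called higher on Day42 than on both earlier days, SEL1L only against Day0, and EDEM1 in neither. Their summed FPKM was 9.81 to 22.5 at Day0, 13.2 to 14.4 at Day21 and 63.5 to 76.3 at Day42, where HERPUD1 alone gave 73.3, 61.1 and 54.3. HERPUD1 (ENSG00000051108, chromosome 16, 56932142 to 56944864), a membrane scaffold of the degradation complex, had 70.8, 158 and 62.0 CPM on Day0, 81.9, 88.5 and 89.6 on Day21, then 331, 262 and 256 on Day42. All Day42 libraries lay above the rest. It rose by 1.71 ± 0.37 from Day21 (edgeR adjusted p = 0.0104) and, relative to Day0, by 1.54 ± 0.37 (edgeR adjusted p = 0.0128; 0.0564 without Day0 replicate 1). SEL1L (ENSG00000071537, chromosome 14, 81471547 to 81533853, minus strand), the adaptor of the ubiquitin ligase SYVN1, had 12.2, 10.3 and 8.64 CPM on Day0, 13.3, 19.7 and 22.8 on Day21, then 19.8, 19.1 and 96.9 on Day42. It was called higher than on Day0 (2.13 ± 0.70, edgeR adjusted p = 0.0481), but that value rests on 1 library: without Day42 replicate 3 it was 0.91 (edgeR adjusted p = 0.0584), and 12 of 20 alternatives lost the call, among them leaving out any single Day0 or Day21 library (adjusted p 0.0744 to 0.144). EDEM1, which trims mannose from misfolded glycoproteins, had 3.84, 0.0943 and 47.5 CPM on Day42, the widest spread of the 3, against 1.64 to 3.49 before, and was not called. Without Day42 replicate 2 it was called higher in both Day42 comparisons, while without replicate 3 its change from Day21 was -0.27.

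To set ATF4 targets against ER chaperones, each gene's log2 CPM was taken relative to its Day0 mean and the median over each list was formed in every library. The median of the 19 ATF4 targets was -0.06 ± 0.35 at Day0, -0.13 ± 0.26 at Day21 and 0.06 ± 0.18 at Day42 (SD, n = 3). That of the 10 chaperones was -0.02 ± 0.13, -0.28 ± 0.10 and -1.76 ± 0.40. The difference between the lists was -0.04 ± 0.47 at Day0, 0.15 ± 0.31 at Day21 and 1.82 ± 0.48 at Day42, where the libraries gave 1.36, 1.80 and 2.31. The Day42 libraries thus lay clear of the other days, whose highest value was 0.49, with the chaperone median far below its earlier values and the ATF4 median near its own. The median of all tested genes in the same Day42 libraries was -0.78, -0.62 and -2.84, so the ATF4 targets lay above it in every Day42 library, and the chaperones below it in replicates 1 and 2 and above it in replicate 3. With the mean over the list in place of the median, the Day42 minus Day21 difference was 0.63 in place of 1.67, and the Day42 minus Day0 difference 1.23 in place of 1.87. The ATF4 list is itself divided, with 4 members called higher than on Day21 (ATF3, DDIT3, PPP1R15A and MTHFD2) and 3 lower (DDIT4, PHGDH and PSAT1).

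**Figure D4:**
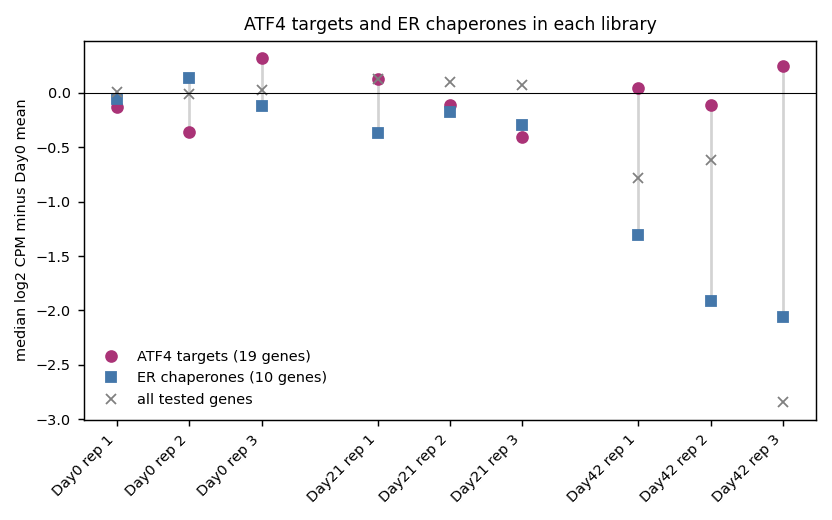
Median log2 CPM relative to each gene's Day0 mean (y axis) over 19 ATF4 targets, 10 ER chaperones and all tested genes, in each of the 9 libraries (x axis); grey lines join the 2 lists. On Day42 the chaperones lie between -2.06 and -1.31 while ATF4 targets stay between -0.11 and 0.25.

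Per length, the markers of the 2 arms came close to each other. HSPA5 stood at 345 ± 51.6 FPKM on Day0 against 12.5 ± 3.30 for DDIT3, and at 238 ± 32.1 against 187 ± 50.7 on Day42 (SD, n = 3). Of the 4 genes whose promoter window held the ATF4-type motif, ATF3 and HERPUD1 rose and ASNS and CHAC1 were not called in edgeR, while limma on log2(FPKM + 1) called all 4 higher on Day42 than on Day21. In that limma setting 2110 of 10619 genes and 10 of 32 members were called higher from Day21, against 1315 of 20156 genes in edgeR. A link of the motif to these calls was not tested.

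Over all tested genes, 2.5% were called from Day0 to Day21, 26.3% from Day21 to Day42 and 32.2% from Day0 to Day42. The first share hangs on the Day42 libraries in the fit: it was 25.6% with only Day0 and Day21 in it and 13.3% without Day42 replicate 3. The 3 shares are therefore no measure of the relative size of the steps. Upstream of ATF4, the kinases and subunits that act on eIF2 were, like most genes, largely not called. Of 15 such genes, 1 rose and 1 fell from Day21 to Day42, and 1 rose and 2 fell from Day0 to Day42, while 0 were called on Day21 against Day0 (edgeR; 2 had an unadjusted p under 0.05). EIF2AK3, which encodes the ER stress kinase PERK, had 4.58 ± 1.13 CPM at Day0, 2.57 ± 0.350 at Day21 and 30.4 ± 12.6 at Day42 (SD, n = 3), a rise of 3.56 ± 0.58 from Day21 (edgeR adjusted p = 0.00354). EIF2AK4, the amino acid-sensing kinase GCN2, went from 126 ± 19.0 to 38.6 ± 25.1 CPM in the same step (-1.71 ± 0.53, edgeR adjusted p = 0.0446). EIF2S2, the beta subunit of eIF2, fell by 1.58 ± 0.28 from Day0 to Day42 (edgeR adjusted p = 0.00397).

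Cytosolic aminoacyl-tRNA synthetases, many of them ATF4 targets that charge tRNAs with amino acids, were divided as well. Of 20, 1 rose (SARS1, 1.21 ± 0.23) and 1 fell (TARS1, -1.33 ± 0.21) by Day21 (edgeR adjusted p = 0.0317 and 0.0178). From Day21 to Day42, 4 rose and 1 fell, with MARS1 at 1.74 ± 0.24 and EPRS1 at 1.40 ± 0.27 (edgeR adjusted p = 0.00199 and 0.00678), and FARSA lower. Against Day0, 2 were higher and 1 lower on Day42, FARSA at -1.63 ± 0.33 (edgeR adjusted p = 0.00682). Among 23 tested genes of further ATF4-linked metabolism and transport, 3 rose and 2 fell from Day21, and 2 were higher and 2 lower than on Day0. SLC1A4, a neutral amino acid transporter, was 4.41 ± 0.86 higher at Day42 than at Day0 (edgeR adjusted p = 0.00554), and SLC7A1, which carries arginine, 2.26 ± 0.68 higher than on Day21 (edgeR adjusted p = 0.0399). PSPH, which completes serine synthesis after PHGDH and PSAT1, fell by 1.91 ± 0.48 from Day0 (edgeR adjusted p = 0.0164). CHMP4C, an ESCRT subunit, had 1.85 ± 0.557 CPM on Day0 and no count in any Day42 library, at least 12.7-fold lower against the mean floor of 0.146 CPM. Placing it at that bound left the list's median at -0.54.

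In 36 further genes of ER folding, transport and degradation, 4 rose and 6 fell from Day21 to Day42, and 5 were higher and 8 lower on Day42 than on Day0, with medians of -0.10 and -0.15. SYVN1 (HRD1), the ubiquitin ligase for which SEL1L is the adaptor, went from 204 ± 70.3 CPM on Day0 to 86.0 ± 28.7 on Day21 and 14.1 ± 2.68 on Day42 (SD, n = 3), a fall of 2.61 ± 0.39 from Day21 (edgeR adjusted p = 0.00268). ERO1A, the oxidase that drives disulfide formation and a known DDIT3 target, rose by 2.41 ± 0.61 from Day21 (edgeR adjusted p = 0.0200). EDEM3, a mannosidase of the EDEM family, rose by 2.28 ± 0.73 (edgeR adjusted p = 0.0493). DERL3, a channel component of the same route, was lower than on Day0 (-5.81 ± 1.58, edgeR adjusted p = 0.0230).

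Cytosolic and mitochondrial heat shock genes answer misfolding outside the ER. Of 16, 3 fell by Day21, HSPA8 (-1.94 ± 0.20), HSP90AB1 (-1.58 ± 0.23) and HSPD1 (-1.16 ± 0.19) (edgeR adjusted p = 0.00229, 0.0121 and 0.0209). From Day21 to Day42, 1 rose, HSPH1 (1.45 ± 0.30), and 1 fell, HSPE1 (-2.35 ± 0.37) (edgeR adjusted p = 0.00902 and 0.00316). Against Day0, 1 was higher and 4 were lower on Day42. These lists were chosen with earlier results of the same data known, and their counts are descriptions beside the percentages of all genes called that are given above.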

How the data were processed

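RNA sequencing libraries of 3 days, 3 per day, were analysed from a deposited table of counts and FPKM per gene. The authors' counts are whole numbers, per the file headers and values, with different totals per library. FPKM were computed by the authors, per the file headers, with a library total that the sources used here do not give. Tools listed in the submitters' processing notes are FastQC and cutadapt 1.9, with GRCh38 as the build. Aligner, counting program, annotation and strand setting were not given in the sources used here. Per the labels' protocols, about 10 ng of total RNA went into a NEBNext low-input kit.

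The members and gene lists were chosen with earlier results of these data known. Columns were matched to samples by name. Genes were kept by filterByExpr (20156 of 34961), scaled by TMM and tested with edgeR 4.0.16 in R 4.3.3 by a quasi-likelihood fit with 1 mean per day over all 9 libraries. A call needed an adjusted p (Benjamini-Hochberg) under 0.05 with a log2 change of at least 1. Log2 CPM used a prior count of 2. A count of 4 was found 7999 times and one of 3 or 5 only 3658 or 3700 times, so counts pile up at multiples of 4, and 3 such steps, 12 counts, served as the floor for a count of 0. Such limits cover counting error only. Total counts per library ran from 58526466 to 69658328, so depth differed little between days.

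Values in every library are printed for members called in any comparison, for DDIT3, HSPA5, ATF4, XBP1 and ATF6, and for members whose libraries of 1 day lie apart from both other days. From other lists, at most 3 called genes of largest change were eligible in each comparison. Alternatives were DESeq2 1.42.0, limma 3.58.1 on FPKM and voom, other scalings and filters, a replicate block and leaving out each library. Library totals alone, and the fit of 2 days without Day42 replicate 3, were added after the data were seen. Annotated spans of 10 members overlap another model on the same strand and 8 on the other strand alone, which makes their counts uncertain. The former are ASNS, ATF5, ATF6, CALR, DDIT3, DNAJC3, HERPUD1, HSP90B1, PDIA6 and SLC7A5. The latter are CEBPB, CRELD2, DDIT4, EDEM1, MTHFD2, SHMT2, SLC7A11 and VLDLR. Promoters came from RefSeq on GRCh38.p14, and spans from the deposited table. Python 3.11.15 and matplotlib 3.10.9 drew the figures.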

Additional observations from a re-analysis of the deposited data

How the results depend on the processing

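Calls of Day21 against Day0 depended most on the settings. The count of called genes, 504, was 2952 with DESeq2, 1036 with library totals only, 881 when genes needed an FPKM of 1 in 3 libraries, 5009 with only the 2 days compared, 1316 and 1325 with limma on log2(FPKM + 1) and log2(FPKM + 0.1), 6925 with voom and quality weights, and 133 to 2894 on leaving out 1 library. The count of called members, 1, was 3 with DESeq2, 2 with the FPKM filter, 5 with 2 days, 2 and 3 with limma, 7 with voom, and 0 to 3 on leaving out 1 library. For Day42 against Day21 and against Day0, called genes numbered 5295 and 6499, and 3095 and 3754 with the FPKM filter, while leaving out 1 library gave 3301 to 7275 for the former. Member counts there stayed within 9 to 15 and 11 to 16 over all 20 alternatives, against 12.

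Libraries with the same replicate number deviated from their day means with correlations of -0.225 to 0.0266. With 3 libraries per day, these values cannot show whether same-numbered libraries shared a differentiation. With the number as a replicate block, called genes were 109, 2420 and 3710, called members 0, 9 and 11, and DDIT3 on Day21 had an edgeR adjusted p of 0.149.

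Every alternative was fitted over all genes that passed its filter. Changes were compared one by one for 17 members, those called in any comparison together with DDIT3, HSPA5, ATF4, XBP1 and ATF6. The 25 called changes of these 17 members all kept their sign, but 21 moved by over 1.5 times under some alternative. Of these, 18 did so with library totals or limma on FPKM and 2 on leaving out 1 library (PPP1R15A and SEL1L, above). The changes whose sign turned were not called in edgeR. ATF4 on Day21 against Day0 (-0.47) was 0.11 and 0.16 with limma on FPKM and 1.18 without Day0 replicate 1, and ran from -1.05 to 1.18 on leaving out 1 library. XBP1 in that step (-0.15) ran from -0.56 to 0.066, the latter without Day21 replicate 3. HSPA5 from Day21 to Day42 (-0.41) was 0.11 with library totals and 0.23 and 0.23 with limma. ATF6 on Day42 against Day0 (0.17) was -0.33 with the block, -0.30 with limma on log2(FPKM + 0.1) and ran from -0.80 (without Day42 replicate 1) to 0.75. Among the other members, whose signs were compared only without Day42 replicate 3, 7 turned, none in a called comparison, among them EDEM1 from Day21 (2.84 to -0.27) and SLC7A11 from Day21 (1.42 to -0.64). The cause was not tested. The difference of ATF4 targets and chaperones, as a mean over members, was 0.61, 0.63 and 1.23 for Day21 against Day0, Day42 against Day21 and Day42 against Day0, and kept within the spread between libraries under its other alternatives. Members at or under 12 counts in Day42 replicate 3 have no usable level in that library.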
